A study of Mus musculus with 12 samples.

Results

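The genes of the NF-kB transcription factor and of its inhibitors were followed in mouse CD4+ T cells under L. acidophilus, under FK506 and under the pair. They were taken by name, as the 5 subunit genes Nfkb1, Nfkb2, Rel, Rela and Relb and the 5 inhibitor genes Nfkbia, Nfkbie, Nfkbid, Nfkbiz and Tnfaip3. All 10 were among the 45777 genes of the expression table, and all 10 passed the filter on low counts that left 23585 genes for testing. The 12 RNA-seq libraries were made from splenic CD4+ T cells of wild type Balb/c mice aged 7 weeks per the labels, whereas the methods name B6 mice for this experiment. Every library, the controls included, came from cells that had 3 days of stimulation by an antibody (0.5 ug/ml) to CD3, a chain of the T-cell receptor complex. There were 4 groups of 3 libraries. The control group had anti-CD3 alone, and the others had in addition L. acidophilus (a probiotic lactic acid bacterium), FK506 (tacrolimus, which blocks the phosphatase calcineurin and so keeps NFAT out of the nucleus) or both, called the combination treatment. The doses of these agents are not given in the labels. The comparisons ask how each treatment, alone and together, changed expression in stimulated T cells. The labels do not say whether libraries came from separate mice or cultures, so p-values measure only the spread between these samples, which may be technical.

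NF-kB proteins bind DNA as dimers drawn from 5 subunits. Nfkb1 and Nfkb2 encode the precursors of p50 and p52, which lack a transactivation domain, while Rel (c-Rel), Rela (p65) and Relb carry one. In resting cells IkB proteins hold the dimers in the cytoplasm. Signalling from the T-cell receptor activates the IKK kinases, which mark IkB for degradation, and the released dimers induce several of their own inhibitors. c-Rel is the subunit best known for its part in T-cell activation and in the development of regulatory T cells.

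Total counts per library were 45416397 to 64658165, with overlapping ranges in the 4 groups. Replicate 1 was the deepest library of each group, at 63113961 to 64658165 against 45416397 to 54245588 in replicates 2 and 3. The lowest count of any member in any library was 801, for Nfkbiz, so counting error was small for all members. The summed level of 8 CD4+ T-cell markers was 1430 to 2170 FPKM (a level corrected for transcript length and sequencing depth) with anti-CD3 alone, 1610 to 1750 under L. acidophilus, 1390 to 1540 under FK506 and 1920 to 2240 under the combination, which did not overlap either single treatment. Of these markers Cd4, Cd3e and Cd28 were called higher under the combination than with anti-CD3 alone and than under FK506, and Cd2 was called lower than with anti-CD3 alone. Libraries 2 and 3 were closer to each other than to library 1 in the L. acidophilus and combination groups (chi-square per degree of freedom of their counts 9.57 against 59.5 and 60.2, and 4.61 against 78.7 and 86.8), while other pairs within groups gave 47.7 to 205. Markers of other cells moved with the groups as well. The sum of 12 B-cell markers, all detected in every group, was 41.7 to 69.2 FPKM with anti-CD3 alone, 28.1 to 40 under L. acidophilus, 250 to 499 under FK506 and 150 to 175 under the combination. The sum of 12 myeloid markers was 2.53 to 4.27, 3.79 to 7.82, 6.36 to 20.1 and 48.5 to 75.4 FPKM in the same order. Of the myeloid markers, Csf1r, S100a8, S100a9, Clec9a and Siglech were at 0 in the anti-CD3 libraries, and S100a8 was at 0 in the combination libraries. In these bulk samples fewer cells of a type and less RNA per cell cannot be told apart.

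Because NF-kB proteins bind the promoters of several of their own genes, promoter sequence was read for the members. RefSeq promoter windows of the GRCm38.p6 build, from 250 bases before to 50 bases after a transcription start, were at hand for 7 of the 10 genes, in 12 windows. Nfkb1, Relb and Nfkbiz had no window and were not searched. The NF-kB consensus (the kB motif, 10 bases) was searched on both strands. At least 1 match was found in 8 of the 12 windows and in 6 of the 7 genes, Rela being the exception, against 8.46% of the 32851 windows of all genes and 9.55% of 27025 genes. The 5 bases GGAAA, the core that NFAT proteins recognise and part of some kB matches, were found on either strand in 9 of the 12 windows and in 5 of the 7 genes, against 61.3% of all windows and 64.4% of all genes. A match is a description of the sequence and not a measured binding site. For each of the 6 genes 1 stretch with a kB match is shown, so that the matches can be compared between members. Each is written 5′ to 3′ on the strand of its gene, with the matching bases in capitals.
Rel, chr11:23771031-23771081, minus strand, intergenic, with 2 overlapping matches 92 to 82 bases before the start: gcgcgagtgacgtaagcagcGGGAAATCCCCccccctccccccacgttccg
Nfkbia, chr12:55492648-55492696, minus strand, intergenic, 29 to 20 bases before the start: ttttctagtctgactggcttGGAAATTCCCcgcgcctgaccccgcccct
Nfkbie, chr17:45555574-45555623, plus strand, intergenic, 106 to 97 bases before the start: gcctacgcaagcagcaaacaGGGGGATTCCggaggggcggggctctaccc
Nfkbid, chr7:30422160-30422209, plus strand, in an intron of Nfkbid, 226 to 217 bases before an inner start: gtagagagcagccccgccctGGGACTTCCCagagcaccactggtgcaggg
Tnfaip3, chr10:19015411-19015442, minus strand, in the annotated gene but in no exon, 12 to 3 bases before the start: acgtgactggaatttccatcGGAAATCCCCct
Nfkb2, chr19:46304693-46304713, plus strand, in an annotated exon: gtcacGGGAATTCCCCccctc
The matches lay on genes that moved in different directions or did not pass the test: Rel rose and Nfkb2 fell with the combination treatment, while Nfkbia, Nfkbie, Nfkbid and Tnfaip3 did not pass it. Nfkb1 and Nfkbiz, the other members that passed it, had no window to search.

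In anti-CD3 cells the members spanned a wide range of levels per length. The order ran from Nfkb1 at 154 ± 20 FPKM (mean ± SD, n = 3, as below) through Nfkb2 (119 ± 18.1), Nfkbia (105 ± 17.2), Tnfaip3 (44.0 ± 11.4), Rela (39.9 ± 4.8), Relb (23.5 ± 1.97), Nfkbie (21.3 ± 4.90), Rel (14.95 ± 2.65) and Nfkbid (10.5 ± 2.30) to Nfkbiz at 4.68 ± 1.07 FPKM. The libraries of neighbours in this order overlapped for Nfkb2 and Nfkbia, for Tnfaip3 and Rela, for Relb and Nfkbie and for Nfkbie and Rel, so the ranges do not separate those pairs, although within each library Nfkb2 was above Nfkbia and Nfkbie above Rel. With the combination treatment the order changed at both ends. Nfkbia was then the highest mean (144 ± 38 FPKM, overlapping Nfkb1 at 129 ± 12.8), which rested on replicate 1, since Nfkb1 was above Nfkbia in the other two libraries, and Nfkbiz (23.4 ± 2.74) stood above Nfkbid (16.4 ± 1.54).

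**Figure D1:**
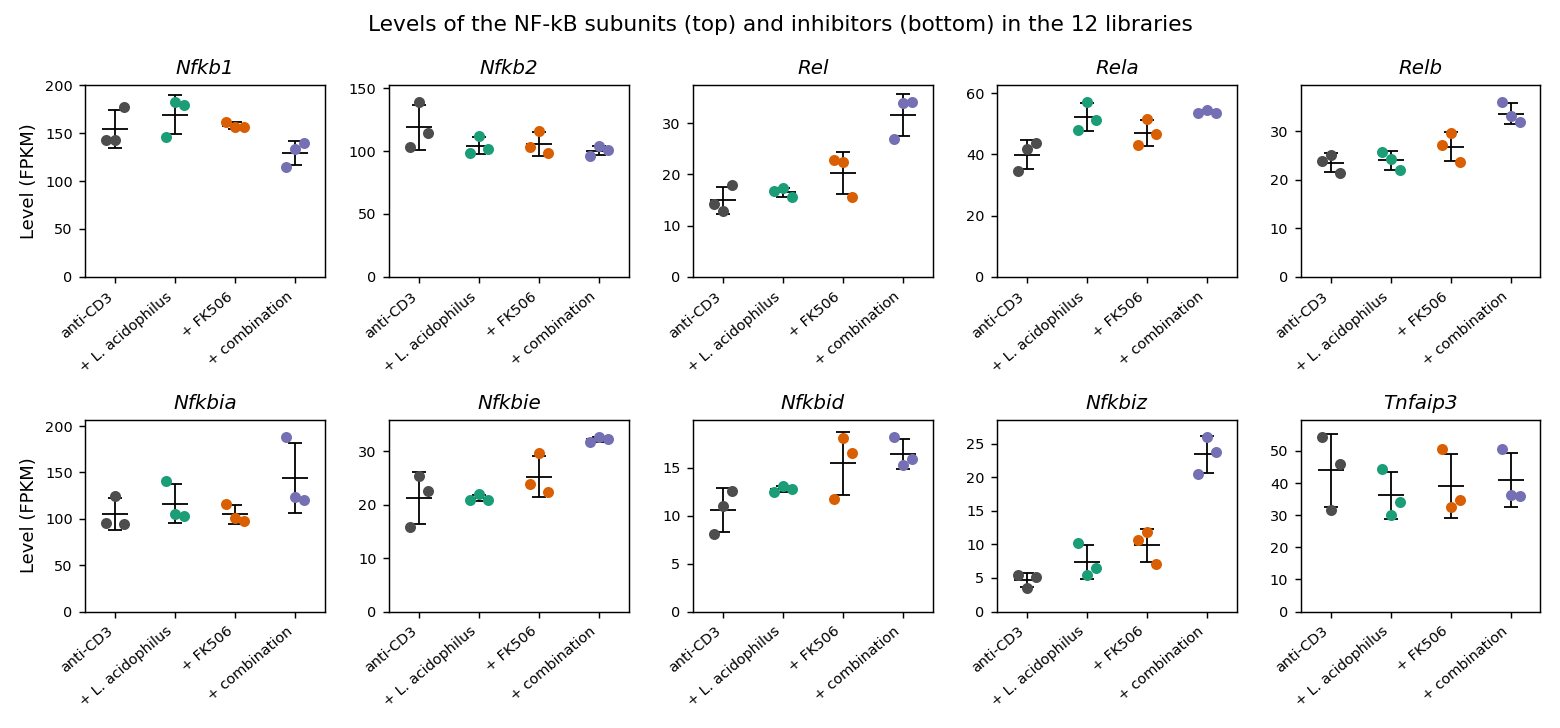
Levels of the 10 members in FPKM (vertical axes, each starting at 0) in the 4 groups, with a point for each library and black lines for the group mean and its SD. The combination libraries stand above all others for Rel (26.9 to 34.1 FPKM) and Nfkbiz (20.5 to 26 FPKM) and below all others for Nfkb1 (115 to 139 FPKM).

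Compared with anti-CD3 alone, the combination treatment raised Rel and Nfkbiz and lowered Nfkb1 and Nfkb2. Thus 4 of the 10 members passed the test (edgeR's quasi-likelihood test on counts, Benjamini-Hochberg adjusted p under 0.05 over all 23585 genes), 2 higher and 2 lower. In the same comparison 43.3% of all tested genes passed (21.5% higher and 21.8% lower), so the members' share was near this background. The background includes genes with low counts, unlike the members. Of the 17909 genes kept by edgeR's filter for low counts (filterByExpr), 56.7% were called. Without TMM factors edgeR called 6 members, 6 higher and 0 lower, where 27.1% of all genes were called higher and 15.9% lower, and limma on FPKM called the same 6. Nfkbiz was the member called with an at least 2-fold change, against 24.6% of all genes. The median log2 change of the 10 members was 0.28, and that of all genes 0.02.

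Rel, which encodes c-Rel, had 14.1, 12.8 and 17.9 FPKM in the anti-CD3 libraries and 26.9, 34 and 34.1 FPKM in the combination libraries. The groups did not overlap, and the lowest combination library stood above the highest of any other group. The fitted log2 change was 0.88 (SE 0.14, adjusted p = 0.000456, edgeR), a 1.84-fold rise, and all 3 combination libraries shared its direction. Nfkb1 had 142, 143 and 177 FPKM with anti-CD3 alone and 115, 133 and 139 FPKM with the combination treatment. All 3 combination libraries were lower than every anti-CD3 library, although by little, and the log2 change was -0.43 (SE 0.11, adjusted p = 0.0069, edgeR). Nfkb2 had 104, 139 and 114 FPKM with anti-CD3 alone and 96.5, 104 and 100.5 FPKM with the combination treatment. These FPKM values overlapped, and the fall was seen after scaling by TMM factors (edgeR's correction for library composition), at 416 to 554 against 341 to 353 CPM (counts scaled to library size). Its log2 change was -0.43 (SE 0.12, adjusted p = 0.0106, edgeR).

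The calls of these 2 falls depended on the scaling, while those of the rises did not. Without TMM factors the median gene stood at a log2 change of 0.23 in place of 0.02, and Nfkb1 (-0.22, adjusted p = 0.159) and Nfkb2 (-0.21, adjusted p = 0.137) were no longer called by edgeR. On log2(FPKM + 1) limma gave -0.25 and -0.23 for them, and neither was called. Nfkb2 also lost its call when only the 6 libraries of these groups were fitted (-0.41, adjusted p = 0.0634, edgeR). With and without TMM factors both genes lay below the median gene. Rel (1.09) and Nfkbiz (2.18) were called without TMM factors as well. Rela, Relb, Nfkbie and Nfkbid, which are described next, were called under some of the alternatives.

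**Figure D2:**
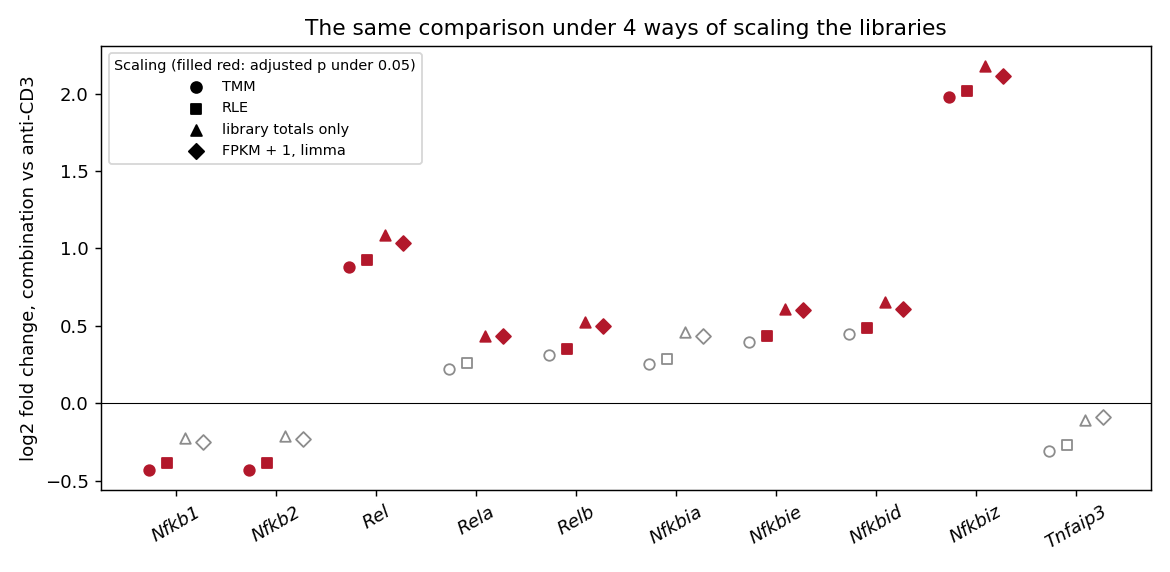
Log2 changes (vertical axis) of the 10 members in the combination against anti-CD3 alone under 4 scalings, which are edgeR with TMM factors, RLE factors or library totals only and limma on log2(FPKM + 1), with filled points for adjusted p under 0.05. Rel and Nfkbiz are called under all 4, and Nfkb1 and Nfkb2 under TMM and RLE factors only.

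Rela, which encodes p65, the main transactivating subunit of most cells, had 34.5 to 43.6 FPKM with anti-CD3 alone and 53.6 to 54.6 FPKM with the combination treatment. Relb, the partner of p52 in the alternative NF-kB pathway, had 21.3 to 25.2 and 31.9 to 35.9 FPKM. For both genes the FPKM of the 2 groups did not overlap, but the fitted log2 changes of 0.22 (SE 0.10, adjusted p = 0.104) for Rela and 0.31 (SE 0.12, adjusted p = 0.052) for Relb did not pass edgeR's test. Without TMM factors they were 0.43 and 0.52, and both passed.

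Among the inhibitors, Nfkbiz changed most. It encodes IkB-zeta, a nuclear IkB protein that binds NF-kB on chromatin and is needed for a set of its late target genes. Nfkbiz had 5.43, 3.45 and 5.15 FPKM in the anti-CD3 libraries, 10.2, 5.43 and 6.47 FPKM with L. acidophilus, 10.7, 11.8 and 7.10 FPKM with FK506 and 20.5, 26 and 23.7 FPKM with the combination treatment. The combination libraries were separate from all others, and the FK506 libraries from the anti-CD3 libraries. Against anti-CD3 alone the combination gave a log2 change of 1.98 (SE 0.23, adjusted p = 5.05e-05, edgeR), a 3.94-fold rise.

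Nfkbia and Nfkbie encode IkB-alpha and IkB-epsilon, the cytoplasmic inhibitors, and Nfkbid encodes IkBNS, another nuclear IkB protein. Nfkbie had 15.8 to 25.4 FPKM with anti-CD3 alone and 31.8 to 32.7 with the combination treatment, and its log2 change was 0.40 (SE 0.15, adjusted p = 0.0529, edgeR). Nfkbid had 8.05 to 12.6 and 15.3 to 18.2 FPKM, with a log2 change of 0.45 (SE 0.18, adjusted p = 0.0605, edgeR). For these 2 genes the groups did not overlap, yet neither passed the test. Relb, Nfkbie and Nfkbid lay just outside the threshold, and all 3 were called by DESeq2, with RLE factors and with edgeR's filterByExpr. The count of members called was then 7 with RLE factors, where 43.4% of the genes tested were called, 7 with filterByExpr, where 56.7% of a shorter list were called, and 8 with DESeq2, where 45.0% were called. Leaving out single libraries also brought them in: Relb without anti-CD3 replicate 2 (0.39) or FK506 replicate 3 (0.35), Nfkbie without anti-CD3 replicate 2 (0.57) or FK506 replicate 2 (0.40) or 3 (0.43), and Nfkbid without anti-CD3 replicate 3 (0.55) or FK506 replicate 1 (0.45).

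Nfkbia did not pass the test, and its value rested on 1 library. It had 95.9, 125 and 94.7 FPKM with anti-CD3 alone and 188, 124 and 121 FPKM with the combination treatment. Replicate 1 of the combination stood apart from the other two, which lay within the anti-CD3 range. The log2 change was 0.25 (SE 0.20, adjusted p = 0.34, edgeR), and without that library it was -0.01. Tnfaip3, which encodes the ubiquitin-editing enzyme A20, a brake on IKK activation, had 54.3, 31.7 and 46.0 FPKM with anti-CD3 alone and 50.6, 36.1 and 36.0 FPKM with the combination treatment. The groups overlapped, with a log2 change of -0.31 (SE 0.24, adjusted p = 0.315, edgeR). Replicate 1 was the highest library of Tnfaip3 in each of the 4 groups. In a fit with a term for replicate number (the replicate block) Tnfaip3 was called lower (-0.30, SE 0.09, adjusted p = 0.0241, edgeR). The labels do not say that the numbers pair libraries.

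**Figure D3:**
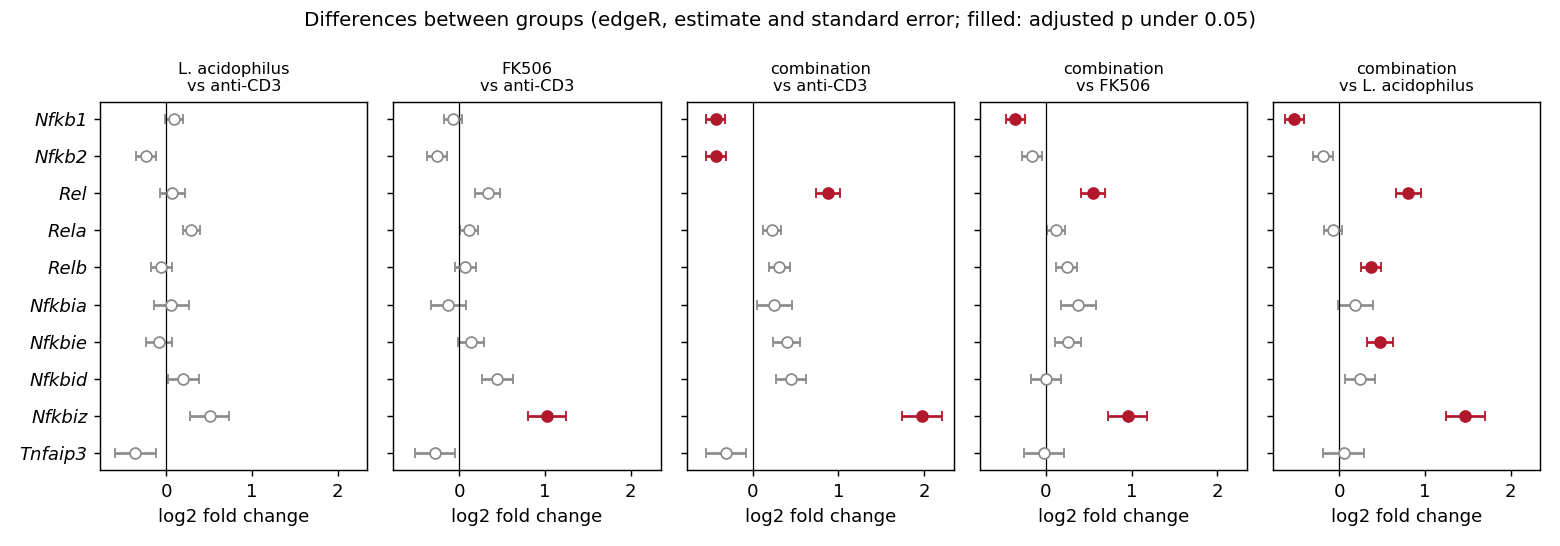
Fitted log2 changes (horizontal axis, edgeR) of the 10 members in the comparisons between groups, with bars for the SE and filled points for adjusted p under 0.05. Nfkbiz lies furthest to the right in the combination against anti-CD3 alone (1.98), followed by Rel (0.88).

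The single treatments moved fewer members. FK506 compared with anti-CD3 alone called 1 of the 10 members, Nfkbiz, where 19.0% of all genes were called. Of all genes, 10.2% were called higher and 10.6% with an at least 2-fold change. Its log2 change was 1.02 (SE 0.22, adjusted p = 0.00859, edgeR), a 2.03-fold rise with all 3 FK506 libraries above all anti-CD3 libraries. Rel had 22.8, 22.4 and 15.65 FPKM with FK506, of which replicate 3 lay inside the anti-CD3 range. The log2 change of Rel was 0.33 (SE 0.14, adjusted p = 0.132, edgeR), and without FK506 replicate 3 it was 0.51 and was called (adjusted p = 0.0228). Nfkbid had 11.8 to 18.1 FPKM and a log2 change of 0.44 (SE 0.18, adjusted p = 0.105, edgeR), which was called without FK506 replicate 1 (0.61, adjusted p = 0.0311) and without TMM factors (0.55, adjusted p = 0.0477).

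L. acidophilus compared with anti-CD3 alone called 0 of the 10 members with edgeR, where 0.229% of all genes were called, and 0 with DESeq2, where 4.75% were called. The 54 genes called by edgeR became 391 without anti-CD3 replicate 3 and 1 without L. acidophilus replicate 1 or 2, 101 with the replicate block and 0 with only the 6 libraries compared, with 0 members called under each. At an unadjusted p under 0.05 there were 2 members, Nfkbiz and Rela, where 14.8% of all genes were, so their share was near the background. Rela had 48.0, 57.0 and 51.25 FPKM with L. acidophilus, all above the anti-CD3 libraries, with a log2 change of 0.30 (SE 0.10, adjusted p = 0.218, edgeR). For Nfkbiz the log2 change was 0.51 (SE 0.22, adjusted p = 0.317, edgeR), and 0.26 without L. acidophilus replicate 1, the highest library of its group, or 0.31 without anti-CD3 replicate 2.

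The combination treatment was then compared with each of its parts. Against FK506 it called 3 of the 10 members, 2 higher and 1 lower, where 19.1% of all genes were called (8.18% higher and 10.9% lower). None reached a 2-fold change, which 7.44% of all genes did. Nfkbiz was 1.94-fold higher (log2 change 0.95, SE 0.22, adjusted p = 0.0121, edgeR) and Rel 1.47-fold higher (0.55, SE 0.14, adjusted p = 0.0197, edgeR), and for both genes the 3 combination libraries stood above the 3 FK506 libraries. Nfkb1, at 156 to 162 FPKM with FK506, was lower with the combination treatment (-0.36, SE 0.11, adjusted p = 0.0384, edgeR). These calls were narrow. Without FK506 replicate 3, where the share of all genes called was also lower (10.0%), none of the 3 was called by edgeR, with Nfkbiz at 0.81 (adjusted p = 0.0602), Rel at 0.40 (adjusted p = 0.0865) and Nfkb1 at -0.35 (adjusted p = 0.113). Without combination replicate 2 or 3, where 12.0% and 12.2% of all genes were called, Nfkbiz was the one called. Rel was then at 0.50 (adjusted p = 0.0724, edgeR) and 0.51 (adjusted p = 0.0687, edgeR). Nfkb1 also lost its call without FK506 replicate 1 (adjusted p = 0.0939) or 2 (0.0643), combination replicate 1 (0.116), 2 (0.0667) or 3 (0.0769), L. acidophilus replicate 2 (0.0535) or 3 (0.0559), without TMM factors (-0.26, adjusted p = 0.165), with RLE factors (-0.32, adjusted p = 0.0624) and with limma (adjusted p = 0.105 and 0.111), so in 12 of 21 alternatives.

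Against L. acidophilus the combination treatment called 5 of the 10 members, 4 higher and 1 lower, where 33.6% of all genes were called (16.6% higher and 17.0% lower). Nfkbiz was the member with an at least 2-fold change, against 16.6% of all genes. Nfkbiz was 2.77-fold higher (log2 change 1.47, SE 0.23, adjusted p = 0.000513, edgeR) and Rel 1.75-fold higher (0.81, SE 0.14, adjusted p = 0.00125, edgeR). Nfkb1 was 1.43-fold lower (-0.52, SE 0.11, adjusted p = 0.00313, edgeR), and its 146 to 182 FPKM with L. acidophilus did not overlap the combination libraries. Relb was 1.29-fold higher (0.37, SE 0.12, adjusted p = 0.0324, edgeR) and Nfkbie 1.39-fold higher (0.47, SE 0.15, adjusted p = 0.0306, edgeR). The calls of these last genes were narrow. Relb lost its call without L. acidophilus replicate 2 (adjusted p = 0.0796) or 3 (0.124) and without combination replicate 1 (0.105) or 2 (0.0635). Nfkbie lost it when any 1 of the 6 libraries compared was left out, with adjusted p of 0.0636 to 0.0852, although its log2 change stayed at 0.46 to 0.50.

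Whether the 2 agents together gave more or less than their separate log2 changes added up was tested by an interaction term. None of the 10 members was called by edgeR, where 4.35% of all genes were called, or by DESeq2, where 10.1% were called, and 2 members had an unadjusted p under 0.05 with edgeR, where 19.6% of all genes did. These were Nfkb1 (-0.45, SE 0.15, adjusted p = 0.128) and Rel (0.48, SE 0.20, adjusted p = 0.214). Nfkbiz, with the largest change in the combination, had an interaction of 0.45 (SE 0.31, adjusted p = 0.486, edgeR).

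The subunits were also compared as shares of their summed FPKM, which do not depend on how libraries are scaled. The sum over the 5 genes was 351 ± 29.1, 366 ± 29.1, 358 ± 18.1 and 349 ± 18.2 FPKM with anti-CD3 alone and under L. acidophilus, FK506 and the combination, so its means differed by less than the spread between libraries. Rel made up 3.55% to 4.79% of it with anti-CD3 alone, 4.22% to 4.98% under L. acidophilus, 4.60% to 6.39% under FK506 and 8.21% to 9.48% with the combination treatment. The share of Nfkb1 was 39.5% to 47.4% with anti-CD3 alone and 35.0% to 38.8% with the combination treatment. The 2 genes moved in opposite directions within the sum. Rela made up 10.8% to 11.6% with anti-CD3 alone and 14.9% to 16.4% with the combination treatment, with 13.8% to 14.5% with L. acidophilus and 12.0% to 13.7% with FK506 in between. Relb had 5.70% to 7.52% and 8.87% to 11%, and Nfkb2 30.5% to 38.4% and 28% to 29.5%. The shares are given as a description and were not tested.

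**Figure D4:**
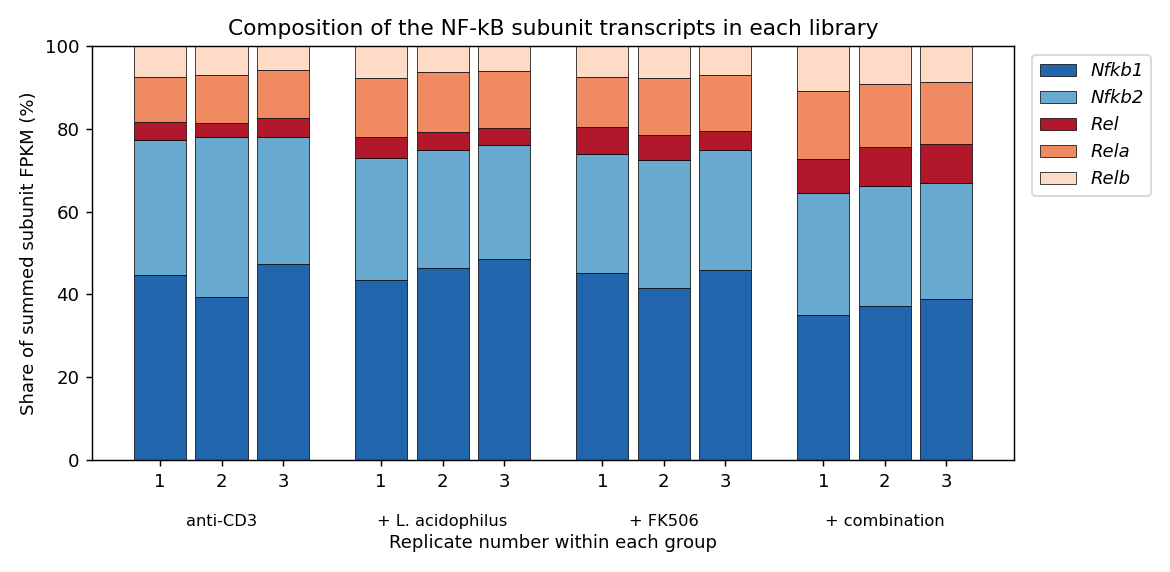
Stacked shares of the 5 subunit genes in their summed FPKM (vertical axis, percent), with a bar for each of the 12 libraries. The share of Rel is 8.21% to 9.48% in the combination libraries and at most 6.39% in all other libraries.

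Ratios between members do not depend on the scale either. The ratio of Rel to Nfkb1 was 0.0897 to 0.101 with anti-CD3 alone, 0.087 to 0.114 under L. acidophilus, 0.1 to 0.144 under FK506 and 0.234 to 0.255 with the combination treatment. Nfkbiz to Nfkbia, the nuclear against the main cytoplasmic inhibitor, was 0.0276 to 0.0566 with anti-CD3 alone, 0.0513 to 0.0727 under L. acidophilus, 0.073 to 0.117 under FK506 and 0.109 to 0.210 with the combination treatment, so the last 2 groups overlapped. Rel to Rela was 0.307 to 0.411, 0.305 to 0.347, 0.337 to 0.532 and 0.502 to 0.635 in the same order, and again the combination overlapped FK506. Nfkbie to Nfkb1 was 0.111 to 0.178, 0.117 to 0.144, 0.143 to 0.190 and 0.232 to 0.277. In each case the combination libraries lay above the anti-CD3 libraries.

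The other genes of the pathway, from lists made by name, moved in both directions in the combination against anti-CD3 alone. As given above, 43.3% of all genes were called there, 21.5% higher and 21.8% lower. Among the genes kept by filterByExpr it was 56.7%, 28.6% higher and 28.1% lower. Of 18 other IkB proteins and regulators, 13 were called, 7 higher and 6 lower, with a median log2 change of -0.09 against 0.02 for all genes. The largest rises were those of Nlrc3 (1.57, SE 0.24, adjusted p = 0.000296, edgeR), a negative regulator of T-cell signalling, of Zc3h12a (0.73), which encodes the RNase Regnase-1, and of Birc2 (0.62), which encodes the ubiquitin ligase cIAP1. Birc2 lost its call without anti-CD3 replicate 2 (0.47) or 3 (0.55) or combination replicate 1 (0.53), with adjusted p of up to 0.0626. The largest falls were those of Bcl3 (-1.27, SE 0.18, adjusted p = 0.000151, edgeR), a nuclear IkB protein that partners p50 and p52, of Commd1 (-1.05), a factor for the turnover of nuclear p65, and of Otulin (-0.91), a linear deubiquitinase, which was not called with limma on FPKM. Bcl3 had 38.7 FPKM on average with anti-CD3 alone and 18.5 with the combination treatment, so this nuclear IkB gene fell where Nfkbiz rose.

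Of 22 receptor adaptors and IKK kinases, 10 were called, 7 higher and 3 lower, with a median of 0.12, so that the share called was near the 43.3% of all genes. Malt1, a protease of T-cell receptor signalling, fell (-0.79, SE 0.17, adjusted p = 0.00327, edgeR), with 98.2, 92.75, 56.5 and 65.6 FPKM on average in the anti-CD3, L. acidophilus, FK506 and combination groups. Traf5 (1.65) and Tab3 (0.73) were among the largest rises, and Traf6 (-0.48) and Rbck1 (-0.46), a part of the linear ubiquitin ligase, were the other falls, neither of which was called without TMM factors or with limma on FPKM.

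Of 28 NF-kB target genes, 21 were called, 7 higher and 14 lower, with a median of -0.33, against 43.3% of all genes called, 21.5% higher and 21.8% lower. Il2, which encodes the T-cell growth factor, had 31.6, 31.1, 10.6 and 3.87 FPKM on average in these 4 groups (combination against anti-CD3 -3.22, SE 0.50, adjusted p = 0.000342, edgeR). Csf2, which encodes GM-CSF, had 38.9, 14.7, 4.77 and 3.93 FPKM on average in the same groups. With the combination it fell by 3.48 on the log2 scale (SE 0.70, adjusted p = 0.00175, edgeR), and by 4.99 without combination replicate 1 or 2.83 without anti-CD3 replicate 1. FK506 alone also lowered Csf2 (-3.14, adjusted p = 0.00854, edgeR), and the combination did not differ from FK506 by the test (-0.35, adjusted p = 0.768, edgeR). Ier3, an early response gene, fell by 2.33. Vcam1 rose most, from at most 9 counts in the anti-CD3 libraries to 351 to 551 counts in the combination libraries, and is given although its mean over the 12 libraries was under 1 FPKM, chosen after its values were seen. Among targets with a mean of at least 1 FPKM the largest rises were those of Ltb (1.95, SE 0.37, adjusted p = 0.00129, edgeR), which encodes lymphotoxin beta, and of Bcl2a1d (0.88) and Bcl2a1b (0.81), near-identical survival gene copies whose counts are uncertain because reads can be shared between them.

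**Figure D5:**
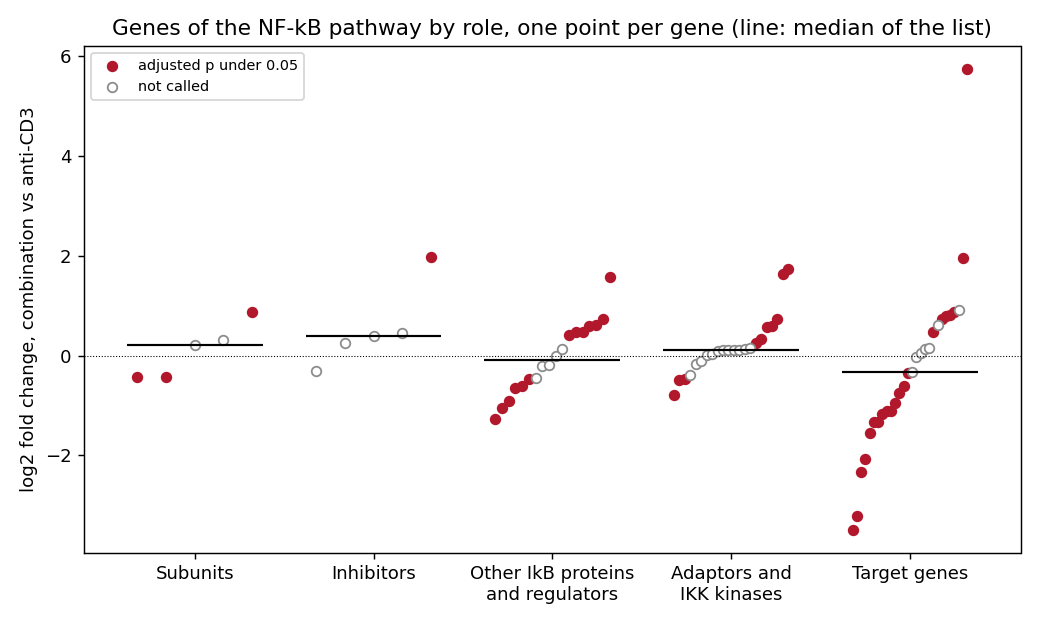
Log2 changes (vertical axis, edgeR) of the members and of the 3 lists of pathway genes in the combination against anti-CD3 alone, with a point for each gene, a line for each list's median and filled points for adjusted p under 0.05. The target genes spread furthest, with 14 of 28 called lower and 7 called higher.

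For the other comparisons, FK506 against anti-CD3 alone called 5 regulators (2 higher, 3 lower), 6 adaptors and kinases (5 higher, 1 lower) and 13 targets (4 higher, 9 lower), against 19.0% of all genes. L. acidophilus called 0 in each of the 3 lists with edgeR, with 4, 6 and 11 at an unadjusted p under 0.05, where 14.8% of all genes were. Against FK506, where 19.1% of all genes were called, the combination treatment called 6 regulators (3 higher, 3 lower), 1 adaptor (higher) and 12 targets (6 higher, 6 lower). Against L. acidophilus, where 33.6% were called, it called 9 regulators (5 higher, 4 lower), 8 adaptors and kinases (5 higher, 3 lower) and 21 targets (9 higher, 12 lower).

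Markers of other cell types are given beside the changes of Rel and Nfkbiz, although the cells had been isolated on magnetic beads against CD4, a step meant to leave such cells behind. Of the 12 B-cell markers edgeR called 8 higher with the combination treatment than with anti-CD3 alone (21.5% of all genes were). It called 11 higher with FK506 than with anti-CD3 alone (10.2%) and 11 higher with the combination than with L. acidophilus (16.6%), so in these comparisons they moved with Nfkbiz. Against FK506, 9 of the 12 were called lower with the combination treatment (10.9% of all genes were), whereas Rel and Nfkbiz were higher. Within the FK506 group, replicate 3 was the lowest for B-cell markers (250 FPKM against 411 and 499), for myeloid markers (6.36 FPKM against 11.2 and 20.1), for Rel and for Nfkbiz. The summed myeloid markers were highest with the combination treatment, as were Rel and Nfkbiz. Of the 9 myeloid markers tested, 7 were called higher than with anti-CD3 alone (21.5% of all genes were). With FK506, 7 were also called higher than with anti-CD3 alone (10.2%), where Nfkbiz was called and Rel was not. Against FK506 the combination called 5 higher (8.18%) and 1 lower (10.9%), which was Itgax (-1.18, adjusted p = 0.018, edgeR). Among the combination libraries, replicate 1 had the highest sum of myeloid markers (75.4 FPKM against 48.5 and 50.7) and the highest Nfkbia, but the lowest Rel and Nfkbiz. The part of other cell types in these results was not tested.

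The loci are given in GRCm38.p6. Rel (gene ID 19696) lies at chr11:23736847-23770969, Nfkbiz (gene ID 80859) at chr16:55811375-55838954, Nfkb1 (gene ID 18033) at chr3:135584655-135691969 and Nfkb2 (gene ID 18034) at chr19:46300994-46312400. Nfkb1 overlaps Gm46827, whose mean level was 0.0535 FPKM. Nfkb2 overlaps 4833438C02Rik (3.59 FPKM) and Psd (0.293 FPKM). Counting by strand is not stated, so reads of overlapping genes may not be told apart, but these partners were far below Nfkb1 and Nfkb2.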

How the data were processed

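The 12 RNA-seq libraries were grouped, and their replicate numbers taken, from the labels. The authors deposited 1 table with a whole-number read count per gene, FPKM and TPM for each library. The submitters' processing notes name bcl2fastq 2.20.0, Trimmomatic, HISAT2 2.1.0, StringTie 2.1.3b and the mouse build mm10/GRCm38, so the deposited counts may be rounded estimates. The paper names a quantile normalization that the deposited FPKM, summing to 380400 to 486300 per library, did not show. The 12 deposited TPM columns were not used. Total counts were 45416397 to 64658165 per library.

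The 23585 genes with a count above 0 in 3 or more libraries were tested with edgeR 4.0.16 (R 4.3.3, quasi-likelihood test, TMM factors, 1 mean per group, all 12 libraries), and p-values were adjusted by Benjamini-Hochberg over all of them. A gene was called at an adjusted p under 0.05. The SE was taken as the log2 change over the root of edgeR's F value. Levels are FPKM as mean ± SD of 3 libraries. The design had been written for the count test and for limma in case the table held other values. DESeq2 1.42.0, RLE factors, filterByExpr, no filter, a replicate block, only the 6 libraries compared, limma 3.58.1 on log2(FPKM + 1) and log2(FPKM + 0.1), a 2-fold threshold and leaving out each library were alternatives, and edgeR without TMM factors was added after seeing the data.

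The members and the gene lists were chosen with earlier results of these data known. All 10 members were named, together with the 3 largest rises and the 3 largest falls of each pathway list among genes called in the combination against anti-CD3 alone with a mean of at least 1 FPKM. The 2 most similar genes were taken for each called member. Some genes that these rules named are not reported here. Same-numbered libraries deviated together, with every correlation over 0.1 across 13533 genes with a mean count of at least 50, for L. acidophilus against anti-CD3 (0.195 to 0.471) and for the combination against L. acidophilus (0.107 to 0.201), and not in the other comparisons. Within groups, every pair of libraries differed by more than counting noise. In simulated counts for the combination against anti-CD3, 92 of 100 genes changed 2-fold and 100 of 100 changed 4-fold were recovered among 23439, with 7 other genes called.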

Additional observations from a re-analysis of the deposited data

Results flagged for a closer look

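For 9 genes of the pathway lists (2 of 18 regulators, 0 of 22 adaptors and kinases and 7 of 28 targets, against 4.35% of all genes) the combination treatment differed from its separate log2 changes added up, by the interaction test (edgeR, adjusted p under 0.05 over all genes), and no member did. Ccl5, a chemokine, had 21.1, 12.7, 5.71 and 23.9 FPKM on average in the anti-CD3, L. acidophilus, FK506 and combination groups (interaction 2.79, SE 0.24, adjusted p = 0.00213). Traf1, an adaptor of TNF receptors, had 91.9, 68.6, 75.0 and 144.5 FPKM (1.34, adjusted p = 0.0131), and Tnfrsf9, the costimulatory receptor 4-1BB, 245, 159, 108 and 215.5 FPKM (1.66, adjusted p = 0.0219). Myc, a growth regulator, had 92.0, 84.1, 66.9 and 25.15 FPKM (-1.29, adjusted p = 0.0107). Nkrf, a repressor of NF-kB, had 4.05, 5.44, 5.57 and 3.93 FPKM (-1.10, adjusted p = 0.0157), and Bcl2l1, which encodes the survival protein BCL-XL, had 55.2, 50.1, 51.0 and 32.6 FPKM (-0.61, adjusted p = 0.0476). Tnip1, an A20-binding protein, had 40.7, 41.2, 41.6 and 64.6 FPKM (0.62, adjusted p = 0.0367). Ier3 had 20.5, 8.94, 3.74 and 4.71 FPKM (1.52, adjusted p = 0.0304). Vcam1 had 0.0305, 0.0184, 0.388 and 2.1 FPKM (3.16, adjusted p = 0.0484), and 4.09 without L. acidophilus replicate 1. Traf1, Myc and Ccl5 were called under all 20 alternatives, whereas Bcl2l1 lost its call in 13, Vcam1 in 10, Tnip1 and Ier3 in 8 each, Tnfrsf9 in 2 and Nkrf in 1. Whether single libraries were outlying was not tested.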

How the results depend on the processing

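In the combination against anti-CD3, Rel and Nfkbiz kept an adjusted p under 0.05 in all 21 other fits. With TMM factors Rel, at 1.84-fold, did not reach the 2-fold threshold, while its ratio of mean FPKM was 2.12. The count of 4 members became 8 with DESeq2 (45.0% of genes tested called), 7 with RLE factors (43.4%) and 7 with filterByExpr (56.7%). It was 6 without TMM factors (43.0%) and with limma on FPKM + 1 (43.7%) or + 0.1 (44.3%), all 6 higher. It was 5 with no filter (35.2%) and 3 with only the 6 libraries compared (41.1%). With a 2-fold threshold it was 1 (24.6%), and without single libraries 4 to 6 (36.6% to 43.8%). With the replicate block it was 8 (44.4%), adding Relb (adjusted p = 0.0159), Nfkbie (0.0253), Nfkbid (0.0496) and Tnfaip3 (-0.30, adjusted p = 0.0241, edgeR); same-numbered libraries of these 2 groups correlated at -0.0702 to 0.252, with 3 of 6 libraries closest to their own number, and the block changed no other count of members. FK506 against anti-CD3 went from 1 to 2 without TMM factors (19.4% of genes called) and was 1 to 2 without single libraries (10.7% to 20.3%). The combination against FK506 went from 3 to 0 with a 2-fold threshold (7.44%) and was 0 to 3 without single libraries (10.0% to 23.6%). The count was 0 lacking FK506 replicate 3, where 10.0% of genes were called in place of 19.1%. Against L. acidophilus the combination went from 5 to 1 with a 2-fold threshold (16.6%) and was 3 to 5 without single libraries (25.5% to 37.8%). L. acidophilus against anti-CD3 and the interaction stayed at 0 members under all alternatives run. Nfkbia in the combination against anti-CD3 reversed without combination replicate 1 (-0.0149, and -0.0149 to 0.42 without single libraries). The causes of these shifts were not tested. Over the member log2 changes that were recomputed under the alternatives (not all members in each comparison), 680 kept direction and call, 39 gained a call, 33 lost it and 1 reversed.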

Other observations

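The genes whose levels were most like those of the called members over the 12 libraries (Pearson's r of log2(FPKM + 1) among 8732 genes with a mean of at least 5 FPKM, given as a description) were Git2 (0.993) and Akap13 (0.99) for Nfkbiz, Phtf2 (0.985) and Itprid2 (0.978) for Rel, Naa15 (0.954) for Nfkb1, and Akr1a1 (0.879) and Tecr (0.879) for Nfkb2. All points share the group structure of the 12 libraries.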
